A study of Mus musculus with 16 samples.

Results

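The NRF2 regulators and target genes described here were taken by name, with earlier results of these data known. They are 10 mouse genes, Nfe2l2, Keap1, Nqo1, Hmox1, Gclc, Gclm, Txnrd1, Srxn1, Slc7a11 and Gsr. They were found as every non-control array probe whose RefSeq transcript belongs to one of them, which gave 17 of 41174 probes and 10 of 17178 named genes. Expression was measured in the hippocampus of male mice on 16 single-colour Agilent arrays, 4 per group. The groups were SAM/P-8 mice on CCH, SAM/P-8 mice on control diet, SAM/R-1 mice on CCH and SAM/R-1 mice on control diet. CCH is coral calcium hydride, mixed at 0.1% into CE-2 rodent chow, and the control diet was CE-2 alone. Feeding began at 8 weeks of age and lasted 8 weeks. SAM is the senescence-accelerated mouse, whose lines were selected from AKR/J stock. P lines are known as senescence-prone and R lines as senescence-resistant. The labels number the replicates without saying whether each came from its own animal, and the p-values therefore cover the spread between these samples alone, which may be technical. The study's title sets out to determine the effects of the hydride in a model of accelerated senescence, and the question asked of these 10 genes was whether the supplement moved antioxidant expression.

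NRF2, the protein of Nfe2l2, is a transcription factor that KEAP1 holds in the cytoplasm and feeds to the proteasome. Oxidants and electrophiles modify KEAP1, NRF2 then accumulates, pairs with small MAF proteins in the nucleus and binds antioxidant response elements near genes of glutathione synthesis, thioredoxin recycling and detoxification. In brain the pathway is known to be most active in astrocytes, which supply neurons with glutathione precursors. Much of this control acts on the protein, and the transcripts of the targets are the usual readout of NRF2 activity.

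The short sequences below show where the element's core lies at the start of member genes. RefSeq promoter windows on GRCm38.p6, from 250 bases before to 50 bases after a start, were matched for 7 of the 10 genes in 9 windows. The core searched was TGACNNNGC on either strand, where N is any base. It was present in 4 of these windows, 1 each of Nfe2l2, Gclm, Txnrd1 and Srxn1, and in 12.4% of all 32851 windows. The other windows, of Keap1, Slc7a11, Nqo1 and Txnrd1, did not hold those letters, and Gclc, Gsr and Hmox1 were not matched to a window. Each run is written along the gene's strand with the core in capitals and 10 bases on either side.
Nfe2l2, chr2:75704885-75704913, minus strand: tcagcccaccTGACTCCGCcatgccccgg
Gclm, chr3:122245413-122245441, plus strand: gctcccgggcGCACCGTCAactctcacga
Txnrd1, chr10:82859104-82859132, plus strand: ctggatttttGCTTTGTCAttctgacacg
Srxn1, chr2:152105542-152105570, plus strand: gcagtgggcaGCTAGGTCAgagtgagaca
In Nfe2l2 the core read along the gene, 240 to 232 bases before its start. In Gclm it lay on the opposite strand, 134 to 126 bases before the start. In Txnrd1 it also lay on the opposite strand, 92 to 84 bases before the second of the gene's annotated starts. The Srxn1 match was on the opposite strand inside the gene, at bases 29 to 37 after the start. A match is a description of the letters and not a measured binding site.

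Values are given as log2 levels, meaning log2 of a probe's processed signal minus the 75th percentile of its array, so 0 is the level of a probe at that percentile. Levels of different probes cannot be set against each other. Arrays had from 28920 to 33333 of their 43379 non-control spots well above background, and precision is limited by there being 4 arrays a group. The 4 groups sat on 4 different slides, 1 slide to a group, and slide and group cannot be told apart. The library SAM/P-8 CCH replicate 4 stood apart. Its score for 9 striatal markers, the mean of their levels once each gene was centred on its own mean across arrays, was 3.81, against -0.37 to 0.09 in the rest of its group. In the same library the oligodendrocyte score was 0.47 and the hippocampal neuron score was -0.37. Markers of neurons, hippocampal neurons, astrocytes and oligodendrocytes were well above background on all 16 arrays for every gene listed. The monocyte marker Ccr2 was well above background on 0 arrays.

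A probe was tested if some group had it well above background on each of its 4 arrays. All 17 member probes passed that filter, and 16 of them were well above background on all 16 arrays. The exception was the dimmest Slc7a11 probe, which passed on 1 of the 4 SAM/P-8 control arrays. Nfe2l2 had 2 probes, Slc7a11, Gsr and Srxn1 had 3 each, and the other 6 genes had 1. Where a gene has several probes they are called the brightest, the second and the third by mean level, and all probes of a gene carry the same transcript name. Differences were tested with limma across all 29009 probes that passed, with Benjamini-Hochberg adjustment and a threshold of 0.05, and errors of differences are standard errors.

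**Figure D1:**
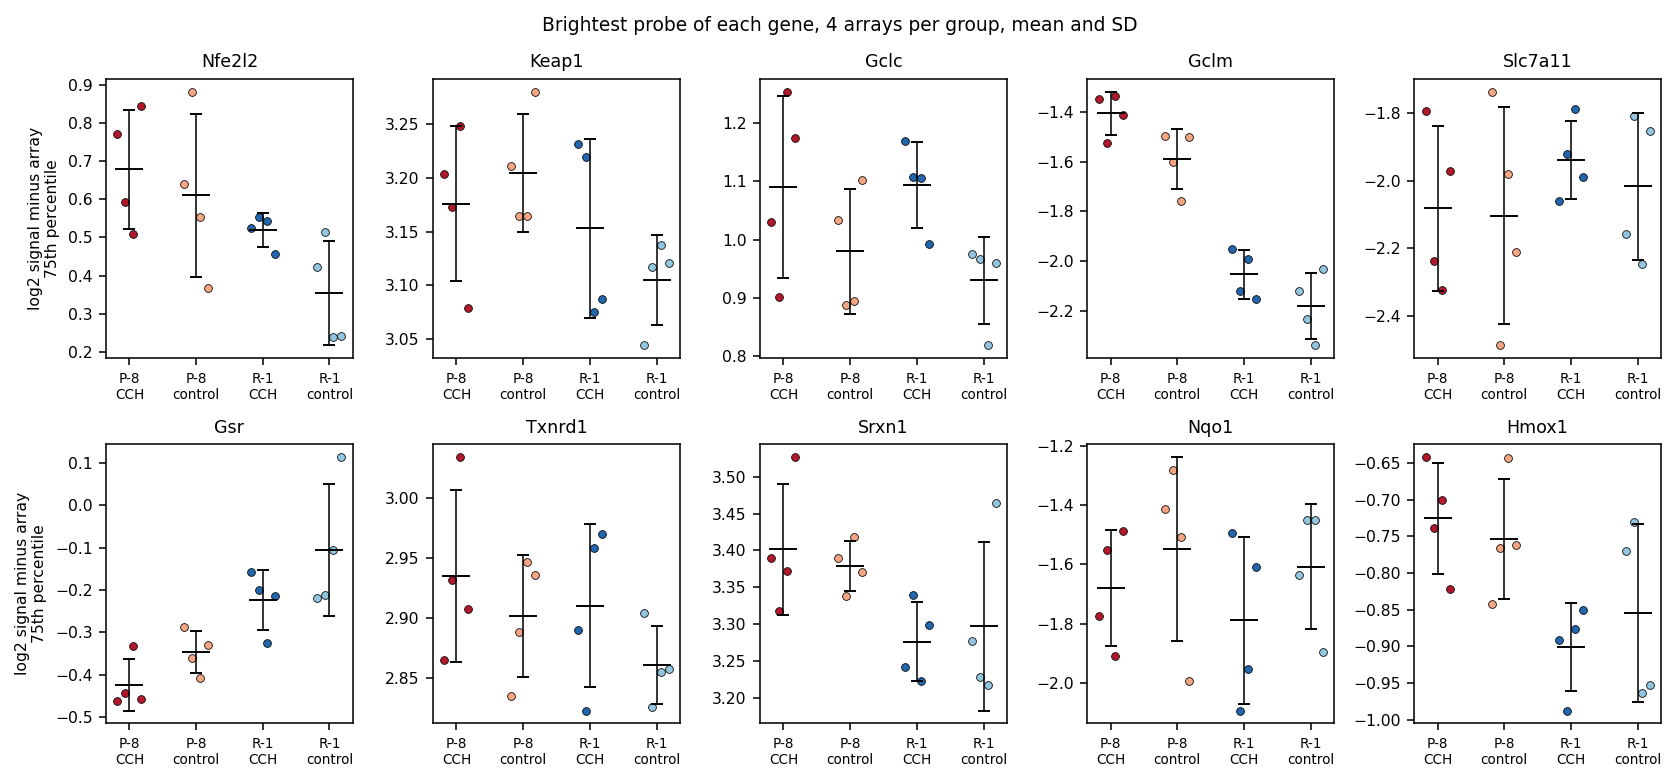
Log2 level of the brightest probe of each of the 10 genes on every array (vertical axis, log2 processed signal minus the array's 75th percentile, with a range of its own in each panel), by group along the horizontal axis. Points are arrays, and lines are group means with SD (n = 4 each). The Gclm arrays of SAM/P-8, from -1.76 to -1.33, all lie above those of SAM/R-1, from -2.34 to -1.95, and no panel shows a called diet difference.

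No member gene passed the test for CCH in either strain, and the differences were small, none over 0.36 in size on the log2 scale. In SAM/P-8, limma called 0 of 10 genes and 0 of 17 probes between CCH and control, where it called 0.788% of all genes and 0.862% of all probes. At an unadjusted p of 0.05 or less there were 4 of the 17 probes, against 19.1% of all probes. In SAM/R-1 it called 0 of 10 genes and 0 of 17 probes, where 0.104% of all genes and 0.114% of all probes were called. None of the member probes there reached an unadjusted p of 0.05, against 10.9% of all probes. The CCH effect averaged over the strains likewise called 0 of 10 genes and 0 of 17 probes, against 4.16% of all genes, with 4 probes at an unadjusted p of 0.05 or less, against 23.7% of all probes. No member probe was called for diet under any of the processing alternatives, where the lowest adjusted p was 0.0678. The 2 strains' comparisons use separate arrays in their means, but share the estimate of the spread from all 16 arrays. The average uses the arrays of both strains.

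The 95% intervals cover the spread between arrays of a group under the main processing. A shift of a whole slide is not covered by them, as each group had its own slide. With another background correction the third Slc7a11 probe in SAM/R-1 gave 0.32, outside its interval of -0.68 to 0.07. In SAM/P-8 the 95% intervals of the 17 differences ran from -0.49 to 0.58 on the log2 scale, and all 17 lay within a 1.5-fold change either way. In SAM/R-1 they ran from -0.68 to 0.41, and 16 of 17 lay within 1.5-fold. The narrowest belonged to Txnrd1, thioredoxin reductase, whose CCH difference was 0.03 ± 0.05 in SAM/P-8 and 0.05 ± 0.05 in SAM/R-1. The member median was 0.03 in SAM/P-8 and 0.05 in SAM/R-1 over brightest probes, beside -0.02 and -0.02 over all genes tested.

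**Figure D2:**
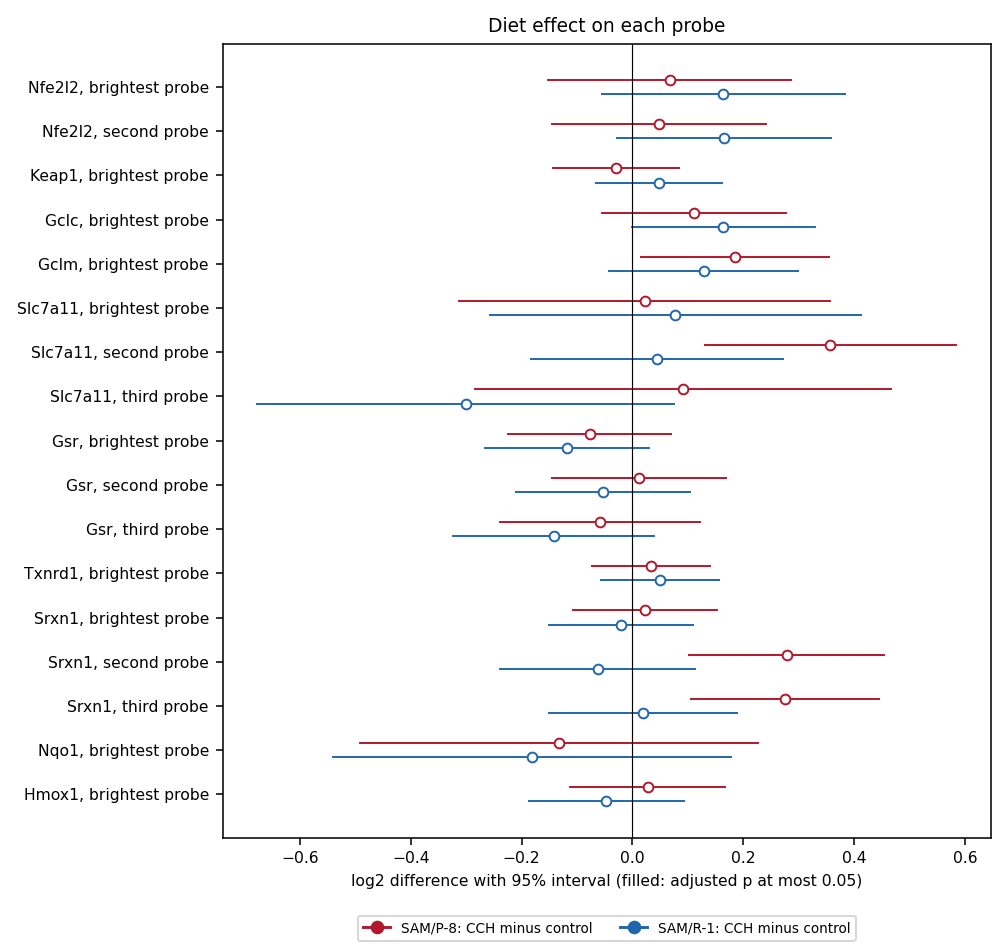
CCH minus control (horizontal axis, log2 difference) for each of the 17 member probes (vertical axis), with SAM/P-8 and SAM/R-1 drawn apart. Points are limma estimates, bars are 95% intervals, and a filled point would mark an adjusted p of 0.05 or less. No point is filled, and the widest reach is that of the third Slc7a11 probe, down to -0.68 in SAM/R-1.

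Among the regulators, Nfe2l2 showed overlapping diet groups in both strains. Its brightest probe had log2 levels of 0.77, 0.59, 0.51 and 0.84 in SAM/P-8 on CCH, against 0.64, 0.88, 0.55 and 0.37 in SAM/P-8 on control diet. In SAM/R-1 they were 0.52, 0.55, 0.54 and 0.46 on CCH, against 0.42, 0.51, 0.24 and 0.24 on control diet. The CCH difference was 0.07 ± 0.10 in SAM/P-8 and 0.16 ± 0.10 in SAM/R-1. Keap1, the adaptor that hands NRF2 to the CUL3 ubiquitin ligase, stayed within 3.04 to 3.28 on all 16 arrays, with CCH differences of -0.03 ± 0.05 in SAM/P-8 and 0.05 ± 0.05 in SAM/R-1.

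For glutathione synthesis, Gclc encodes the catalytic and Gclm the modifier subunit of glutamate-cysteine ligase, the rate-limiting enzyme. Gclc in SAM/R-1 was the only member probe of that strain whose diet groups did not overlap, where 8.72% of all probes did not overlap. Its log2 levels were 1.17, 1.11, 1.11 and 0.99 in SAM/R-1 on CCH, against 0.97, 0.97, 0.82 and 0.96 in SAM/R-1 on control diet. The difference was 0.16 ± 0.08 and did not pass (limma adjusted p = 0.464). In SAM/P-8 Gclc averaged 1.09 ± 0.16 on CCH and 0.98 ± 0.11 on control diet (SD, n = 4 each), which overlapped. The Gclm difference was 0.18 ± 0.08 in SAM/P-8 (limma adjusted p = 0.227) and 0.13 ± 0.08 in SAM/R-1, with overlapping arrays in both.

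Slc7a11, the cystine importer xCT that feeds glutathione synthesis, gave the largest diet difference of any member, on 1 of its 3 probes. The second probe had log2 levels of -3.76, -3.78, -3.94 and -3.51 in SAM/P-8 on CCH, against -4.00, -4.30, -3.96 and -4.16 in SAM/P-8 on control diet. The groups did not overlap, and the highest value was that of the library with striatal markers. The difference was 0.36 ± 0.11 (limma adjusted p = 0.105), and without that library it was 0.28 (limma adjusted p = 0.218). The brightest probe of the gene gave 0.02 ± 0.16 and the third 0.09 ± 0.18 in the same comparison. In SAM/R-1 the second probe differed by 0.04 ± 0.11 and the third by -0.30 ± 0.18. Both values depended on the background correction, and with normexp, an alternative to the scanner's subtraction, they were 0.35 and 0.32. The difference in CCH effect between the strains at the second probe was 0.31 ± 0.15, and -0.04 with normexp.

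Srxn1, sulfiredoxin, which repairs overoxidised peroxiredoxins, separated the SAM/P-8 diet groups on 2 of its 3 probes. The second probe had log2 levels of -0.89, -0.91, -0.97 and -0.59 in SAM/P-8 on CCH, against -1.05, -1.19, -1.07 and -1.16 in SAM/P-8 on control diet. The third had -1.04, -0.99, -1.08 and -0.85 in SAM/P-8 on CCH, against -1.21, -1.30, -1.16 and -1.39 in SAM/P-8 on control diet. Neither pair of groups overlapped, and replicate 4 on CCH, the library with striatal markers, was the highest in each. The differences were 0.28 ± 0.08 (limma adjusted p = 0.104) and 0.28 ± 0.08 (limma adjusted p = 0.0974). Without that library they were 0.20 (limma adjusted p = 0.201) and 0.23 (limma adjusted p = 0.205), so neither passed with or without it. The part of the striatal tissue in these values was not tested. The brightest Srxn1 probe differed by 0.02 ± 0.06. With Slc7a11, these made 3 of 17 member probes whose SAM/P-8 diet groups did not overlap, where 9.78% of all probes did not.

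Of the remaining targets, Nqo1, a quinone reductase and a standard readout of NRF2 activity, averaged -1.68 ± 0.20 on CCH and -1.55 ± 0.31 on control diet in SAM/P-8, and -1.79 ± 0.28 on CCH and -1.61 ± 0.21 on control diet in SAM/R-1 (SD, n = 4 each). Its CCH differences were -0.13 ± 0.17 in SAM/P-8 and -0.18 ± 0.17 in SAM/R-1. Hmox1, haem oxygenase, differed by 0.03 ± 0.07 in SAM/P-8 and -0.05 ± 0.07 in SAM/R-1. Gsr, glutathione reductase, lay between -0.14 and 0.01 on its 3 probes over both strains.

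Whether the CCH difference depended on the strain was tested by the strain by diet interaction, the CCH difference in SAM/P-8 minus that in SAM/R-1. limma called 0 of 10 genes and 0 of 17 probes, against 0.134% of all genes and 0.172% of all probes. At an unadjusted p of 0.05 or less there were 2 probes, the second and the third of Srxn1, against 5.61% of all probes. For the second the CCH difference was 0.28 ± 0.08 in SAM/P-8 and -0.06 ± 0.08 in SAM/R-1, an interaction of 0.34 ± 0.12 (limma adjusted p = 0.670). For the third the interaction was 0.26 ± 0.11 (limma adjusted p = 0.869).

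**Figure D3:**
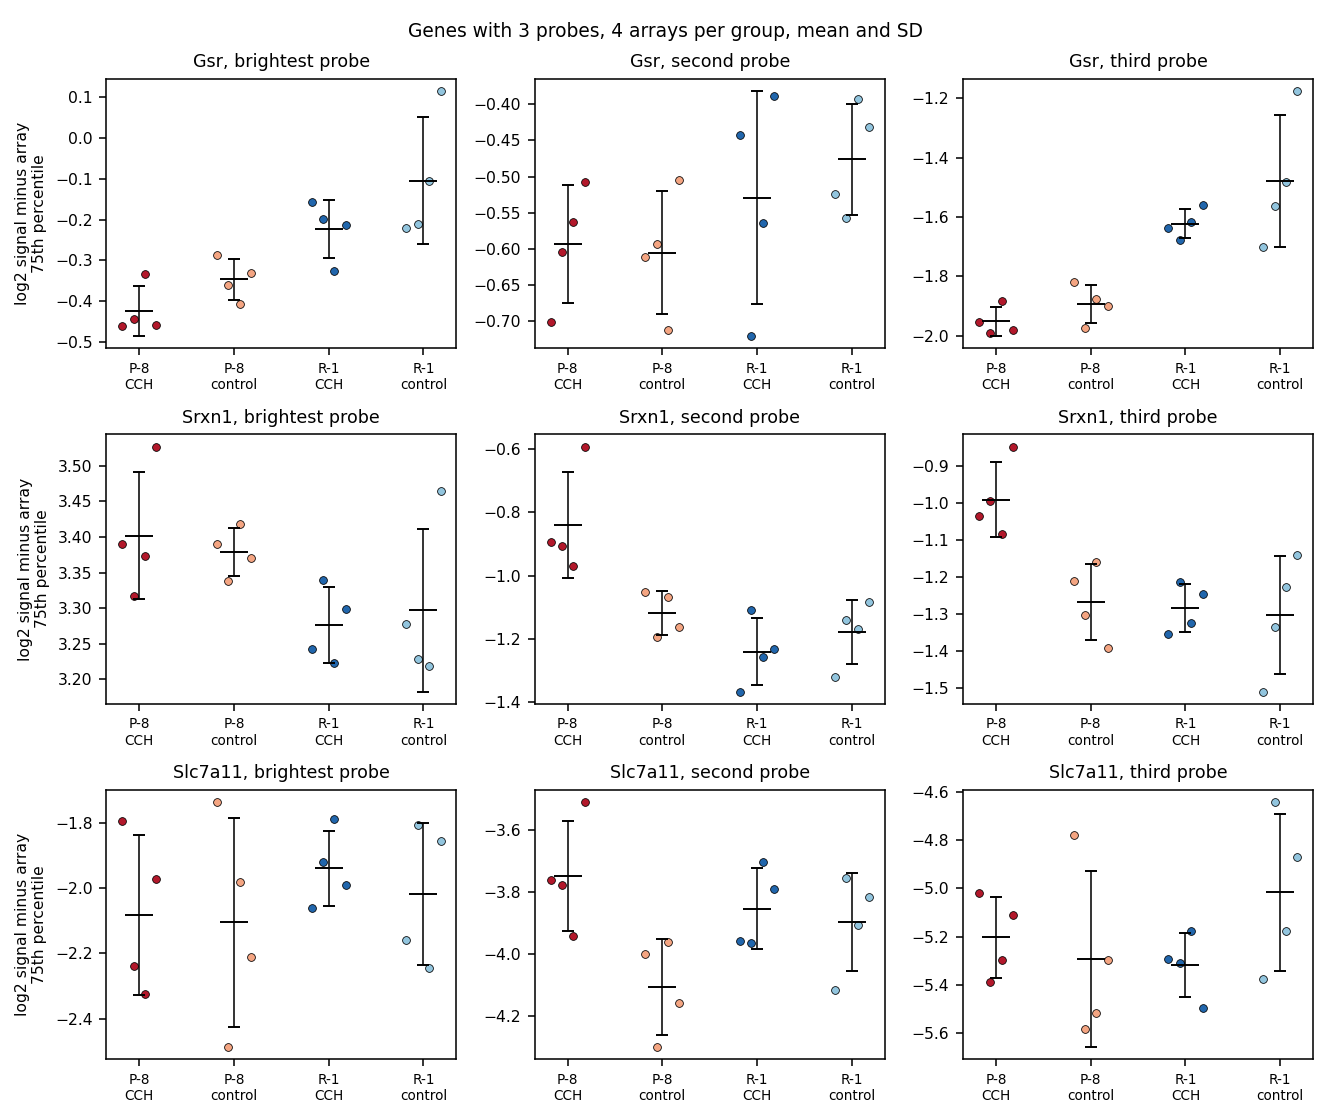
Log2 level on every array (vertical axis, with a range of its own in each panel) of the 3 probes of Slc7a11, Srxn1 and Gsr, by group along the horizontal axis. Points are arrays, and lines are group means with SD (n = 4 each). The second and the third Srxn1 probe are highest in SAM/P-8 on CCH, from -0.97 to -0.59 and from -1.08 to -0.85, while the brightest spans 3.22 to 3.53 over all groups.

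The strains differed in some of these genes, chiefly in Gclm, which was higher in SAM/P-8. Some probes of Gsr were lower, but none of its calls held with normexp. By brightest probe, limma called 1 of 10 genes between SAM/P-8 and SAM/R-1 on CCH, where it called 12.7% of all genes. On control diet it called 2 of 10, where it called 12.8% of all genes. For a set of 10 genes these counts are near the shares of all genes. By probe it called 4 of 17 on CCH, against 13.5% of all probes, and 4 of 17 on control diet, against 13.8%. Groups did not overlap for 7 member probes on CCH, against 20.6% of all probes, and for 4 on control diet, against 19.5%. The comparisons on the 2 diets share no arrays in their means, but share the estimate of the spread from all 16 arrays.

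Gclm had log2 levels of -1.35, -1.53, -1.33 and -1.41 in SAM/P-8 on CCH, against -1.95, -2.12, -1.99 and -2.15 in SAM/R-1 on CCH. On control diet it had -1.50, -1.60, -1.76 and -1.50 in SAM/P-8, against -2.12, -2.23, -2.34 and -2.03 in SAM/R-1. Every SAM/P-8 array was above every SAM/R-1 array, whatever the diet. The difference was 0.65 ± 0.08 on CCH, a 1.57-fold higher signal (limma adjusted p = 4.71e-05). On control diet it was 0.59 ± 0.08, or 1.51-fold (limma adjusted p = 0.000104). It was called under each of the 26 alternatives on each diet, with the smallest differences, 0.43 on CCH and 0.48 on control diet, under another background correction. Across the alternatives the highest limma adjusted p was 0.0489 on CCH, just under the threshold, and 0.0221 on control diet. The gene has a single probe. Gclc, the partner subunit, differed between the strains by -0.00 ± 0.08 on CCH and 0.05 ± 0.08 on control diet.

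Gsr, which regenerates reduced glutathione with NADPH, was lower in SAM/P-8 on 2 of its 3 probes on control diet. On CCH only the third probe passed. The third probe had log2 levels of -1.95, -1.99, -1.88 and -1.98 in SAM/P-8 on CCH, against -1.64, -1.68, -1.62 and -1.56 in SAM/R-1 on CCH. On control diet it had -1.82, -1.97, -1.88 and -1.90 in SAM/P-8, against -1.70, -1.56, -1.48 and -1.18 in SAM/R-1. No SAM/P-8 value overlapped those of SAM/R-1 on the same diet. The differences were -0.33 ± 0.08 on CCH (limma adjusted p = 0.0187) and -0.41 ± 0.08 on control diet (limma adjusted p = 0.00396). The call on CCH was lost without SAM/R-1 CCH replicate 4, at -0.31 (limma adjusted p = 0.0545), and the call on control diet held whichever array was left out. With normexp neither call held, at -0.30 on CCH (limma adjusted p = 0.304) and -0.34 on control diet (limma adjusted p = 0.212).

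The brightest Gsr probe had -0.29, -0.36, -0.41 and -0.33 in SAM/P-8 on control diet, against -0.22, -0.21, -0.10 and 0.11 in SAM/R-1 on control diet. Those groups did not overlap, and the highest array was SAM/R-1 control replicate 4. The difference of -0.24 ± 0.07 passed (limma adjusted p = 0.0310), and was called in 17 of 26 alternatives. Without that array it was -0.17 (limma adjusted p = 0.0701). The call was also lost without SAM/P-8 control replicate 2, 3 or 4 or SAM/R-1 control replicate 3, with differences from -0.25 to -0.22. On CCH the probe gave -0.20 ± 0.07 (limma adjusted p = 0.0706). The second Gsr probe had the same sign and did not pass, at -0.06 ± 0.07 on CCH and -0.13 ± 0.07 on control diet.

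Srxn1 was higher in SAM/P-8 on CCH at the second and the third of its probes. The second had the SAM/P-8 CCH levels given above, -0.97 to -0.59, against -1.37, -1.11, -1.26 and -1.23 in SAM/R-1 on CCH. The difference was 0.40 ± 0.08 (limma adjusted p = 0.00459), and it was called whichever array was left out but not with normexp, at 0.31 (limma adjusted p = 0.177). The third gave 0.29 ± 0.08 (limma adjusted p = 0.0253), and without the library with striatal markers 0.25 (limma adjusted p = 0.0711). It also missed the threshold without SAM/P-8 CCH replicate 2, SAM/R-1 CCH replicate 1 or SAM/R-1 CCH replicate 3, with differences of 0.29, 0.27 and 0.28. The brightest probe gave 0.13 ± 0.06 (limma adjusted p = 0.191). On control diet the brightest, the second and the third probe gave 0.08 ± 0.06, 0.06 ± 0.08 and 0.04 ± 0.08, and whether the strain difference depends on the diet is the interaction given above, which did not pass.

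Nfe2l2 was higher in SAM/P-8 on control diet at its second probe. The log2 levels were -0.17, 0.00, -0.19 and -0.36 in SAM/P-8 on control diet, against -0.48, -0.33, -0.67 and -0.64 in SAM/R-1 on control diet. The groups overlapped by 1 array of each, and the difference was 0.35 ± 0.09 (limma adjusted p = 0.0179). The call was lost without SAM/P-8 control replicate 2, SAM/R-1 control replicate 3 or SAM/R-1 control replicate 4, with differences of 0.29, 0.30 and 0.31. It was also lost when the arrays of the comparison were fitted alone (limma adjusted p = 0.0625). The brightest probe gave 0.26 ± 0.10 (limma adjusted p = 0.118). On CCH the brightest gave 0.16 ± 0.10 and the second 0.23 ± 0.09 (limma adjusted p = 0.105).

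The other members gave no call between the strains. Hmox1 had log2 levels of -0.64, -0.74, -0.70 and -0.82 in SAM/P-8 on CCH, against -0.89, -0.99, -0.88 and -0.85 in SAM/R-1 on CCH. These did not overlap, and the difference of 0.18 ± 0.07 missed the threshold (limma adjusted p = 0.0915). Keap1 on control diet did not overlap either, at 0.10 ± 0.05 (limma adjusted p = 0.244). Txnrd1, Nqo1 and Slc7a11 overlapped on both diets, with Txnrd1 at 0.02 ± 0.05 on CCH and 0.04 ± 0.05 on control diet.

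**Figure D4:**
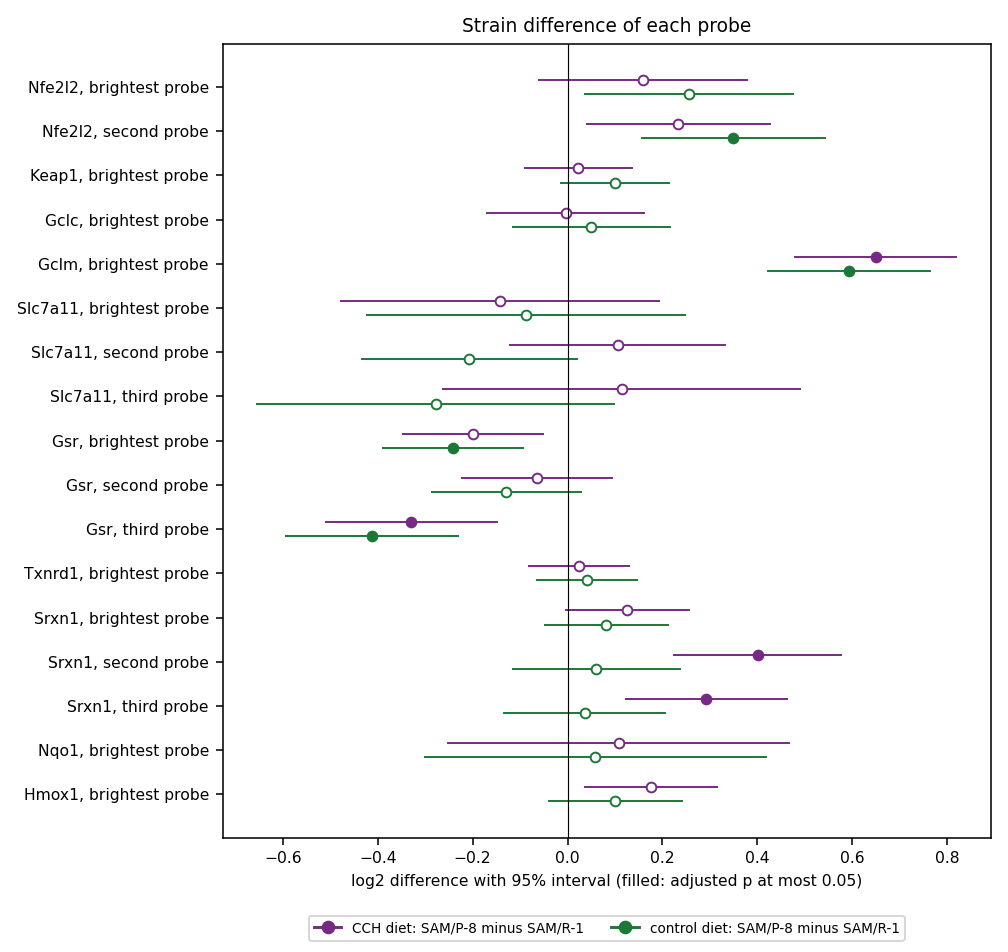
SAM/P-8 minus SAM/R-1 (horizontal axis, log2 difference) for each of the 17 member probes (vertical axis), on CCH and on control diet. Points are limma estimates, bars are 95% intervals, and filled points have an adjusted p of 0.05 or less. Gclm is filled on both diets at 0.65 and 0.59, and the third Gsr probe is filled on both at -0.33 and -0.41.

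Cell type markers also differed between the strains. The arrays read whole tissue, where fewer cells of a type and less RNA per cell cannot be told apart. Of 10 endothelial and pericyte markers, 4 were higher in SAM/P-8 on CCH and 8 on control diet, where 12.7% and 12.8% of all genes were called, and none was lower. Their score ranged from 0.09 to 0.41 in SAM/P-8 on CCH, against -0.20 to 0.04 in SAM/R-1 on CCH. On control diet it ranged from -0.02 to 0.43 in SAM/P-8, against -0.46 to -0.20 in SAM/R-1. Of 5 perivascular macrophage and monocyte markers, 2 were higher on CCH and 4 on control diet. Lyve1, 1 of the 5, was well above background on at most 11 of the 16 arrays. Of 9 microglial markers 4 were higher on CCH and 1 on control diet. Of 10 astrocyte markers 1 was higher on each diet, and the astrocyte score lay between -0.07 and 0.08 on all arrays. Of 8 meningeal and fibroblast markers 1 was higher on CCH, Col3a1, and 0 on control diet, with 4 of the 8 at an unadjusted p of 0.05 or less there. The median differences of that list were 0.78 on CCH and 0.66 on control diet. limma called 0 of 4 red blood cell markers on either diet, while on control diet all 4 were at an unadjusted p of 0.05 or less, with a median difference of 1.24. Of 8 neuron markers 1 was lower on CCH, Camk2a. The part of these cells in the Gclm, Gsr, Srxn1 and Nfe2l2 differences was not tested.

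The rest of the pathway was followed in 57 genes in 9 lists, of which 53 had a probe that passed the filter. limma called 0 of 53 for CCH in SAM/P-8, with 9 at an unadjusted p of 0.05 or less, against 18.5% of all genes. It called 0 of 53 in SAM/R-1, with 3 at that unadjusted p, against 11.2% of all genes. Averaged over the strains limma called 1 of 53, against 4.16% of all genes, with 13 at that unadjusted p, against 24.3%. The called gene was Me1, malic enzyme, a source of NADPH. Me1 averaged 0.94 ± 0.09 on CCH and 1.20 ± 0.08 on control diet in SAM/P-8, and 1.07 ± 0.02 on CCH and 1.22 ± 0.15 on control diet in SAM/R-1 (SD, n = 4 each). The averaged difference was -0.20 ± 0.05 (limma adjusted p = 0.0388). The dimmer of the Gsk3b probes also passed, in the other direction, at 0.26 ± 0.05 (limma adjusted p = 0.0246), while its brightest gave 0.15 ± 0.06. Cell type markers differed in the same averaged comparison, and not all in the same direction. Of 4 red blood cell markers 1 was lower, Slc4a1, and all 4 differences were below 0. Camk2a, 1 of 8 neuron markers, and Zbtb20, 1 of 6 hippocampal neuron markers, were lower too. Of the 8 neuron markers 4 had a difference above 0, with a list median of 0.04. Of the 6 hippocampal neuron markers 2 did, with a list median of -0.13. In SAM/P-8 the red blood cell score ranged from -0.56 to 0.12 on CCH and from -0.17 to 2.54 on control diet, and limma called 0 of its 4 markers there, with 4 at an unadjusted p of 0.05 or less. All 6 choroid plexus markers were also below 0 in the averaged comparison, with a median difference of -0.68. limma called 0 of the 6 there, with 0 at an unadjusted p of 0.05 or less. Their score ranged from -2.72 to 0.99 on CCH and from -1.86 to 1.65 on control diet in SAM/P-8. In SAM/R-1 it ranged from -2.53 to 0.79 on CCH and from -1.21 to 1.28 on control diet. The diet ranges overlapped in both strains. Endothelial and pericyte markers leaned the other way when averaged, with 8 of 10 above 0 and a median of 0.15. limma called 0 of the 10, with 3 at an unadjusted p of 0.05 or less. In SAM/R-1 their median was 0.17, with 4 at that unadjusted p, against 11.2% of all genes. Their SAM/R-1 score ranged from -0.20 to 0.04 on CCH and from -0.46 to -0.20 on control diet. In SAM/P-8 their median was 0.03. The part of these cells in the diet values was not tested. Leaving out 1 array at a time gave 0 to 5 called genes of the 53. The count was 0 without SAM/P-8 CCH replicate 1, 3 or 4, SAM/P-8 control replicate 2 or 3, SAM/R-1 CCH replicate 1, 3 or 4, or SAM/R-1 control replicate 3 or 4. It was 2 without SAM/P-8 CCH replicate 2 and 5 without SAM/P-8 control replicate 1. The interaction called 0 of 53, with 1 at an unadjusted p of 0.05 or less, against 4.8% of all genes. The median difference of the 53 genes was -0.03 in each strain, beside -0.02 over all genes.

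Between the strains the lists gave 6 called genes on CCH, 2 higher and 4 lower in SAM/P-8, and 5 on control diet, 2 higher and 3 lower, where 12.7% and 12.8% of all genes were called. These are shares of the 53 no larger than those of all genes. Among the proteins that govern NRF2 turnover, Gsk3b, a kinase that marks NRF2 for degradation, was higher on CCH at 0.44 ± 0.09 (limma adjusted p = 0.00481), and its other probe gave 0.36. Cul3, the ligase scaffold that KEAP1 binds, was higher on control diet at 0.20 ± 0.06 (limma adjusted p = 0.0392). Park7, known to stabilise NRF2, was lower on CCH at -0.26 ± 0.05 (limma adjusted p = 0.00409) and on control diet at -0.24 ± 0.05 (limma adjusted p = 0.00695). On each diet 6 of the 8 genes of that list did not pass.

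In the glutathione list Gstm1, a glutathione transferase, was lower in SAM/P-8. It averaged 5.64 ± 0.03 in SAM/P-8 against 6.17 ± 0.05 in SAM/R-1 on CCH, and 5.63 ± 0.03 in SAM/P-8 against 6.20 ± 0.05 in SAM/R-1 on control diet (SD, n = 4 each). The groups did not overlap, and the differences were -0.53 ± 0.04 (limma adjusted p = 4.11e-07) and -0.57 ± 0.04 (limma adjusted p = 1.97e-07). Its other probe gave -0.34 and -0.37. Gstm1 has near-identical relatives whose RNA may bind the same probes. Gpx2, a glutathione peroxidase, was lower on CCH at -0.44 ± 0.11 (limma adjusted p = 0.0161).

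Fech, ferrochelatase, which completes haem synthesis, was lower at its brightest probe, at -0.72 ± 0.08 on CCH and -0.80 ± 0.08 on control diet (limma adjusted p = 1.34e-05 and 4.27e-06). Its other probe went the opposite way, 0.26 on CCH and 0.53 on control diet (limma adjusted p = 0.0176 on control diet), so its direction is unsettled. Htatip2, from the detoxification list, was higher at 0.19 ± 0.05 on CCH (limma adjusted p = 0.0285) and 0.17 ± 0.05 on control diet (limma adjusted p = 0.0485). By brightest probe the thioredoxin, NADPH, conjugate export, small MAF and related CNC factor lists had no called gene between the strains on either diet. Dimmer probes of some genes did pass. For Abcc4, an exporter of conjugates, the dimmer probe was higher in SAM/P-8 at 0.76 ± 0.14 on CCH (limma adjusted p = 0.00158) and 0.65 ± 0.14 on control diet (limma adjusted p = 0.00442). For Txnip, a thioredoxin inhibitor, a dimmer probe was higher on CCH at 0.68 ± 0.19 (limma adjusted p = 0.0279). Dimmer probes of Rbx1 and Gstp1 were lower on CCH, at -0.17 ± 0.05 each (limma adjusted p = 0.0280 for Rbx1 and 0.0481 for Gstp1). The median difference of the 53 genes was -0.00 on CCH and 0.00 on control diet, beside -0.02 and -0.01 over all genes. Leaving out 1 array at a time gave 5 to 7 called genes on CCH and 3 to 7 on control diet. The lowest count on control diet, 3, came without SAM/P-8 control replicate 2 or 3, SAM/R-1 CCH replicate 3 or 4, or SAM/R-1 control replicate 2 or 3.

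**Figure D5:**
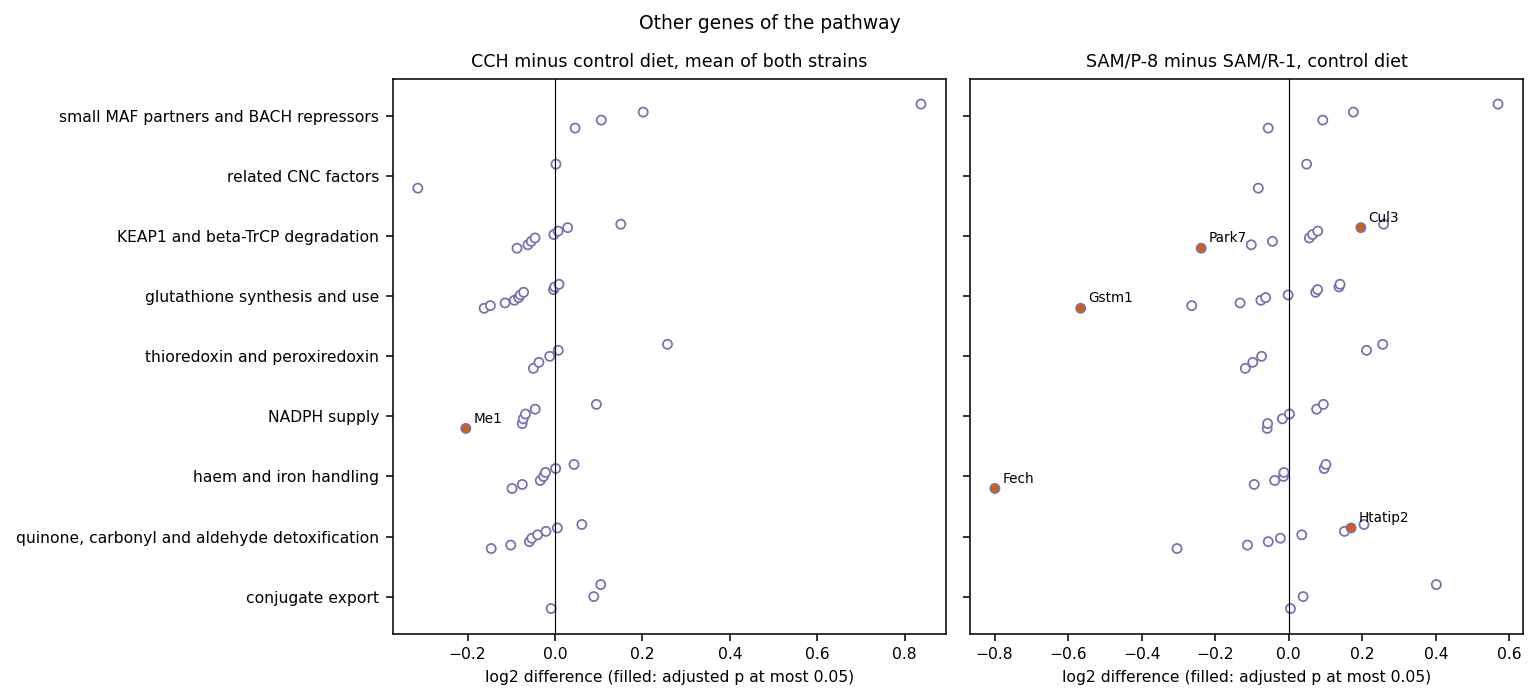
Log2 difference (horizontal axis) of the 53 further pathway genes, each as 1 point at its brightest probe, by list (vertical axis), for CCH minus control averaged over the strains and for SAM/P-8 minus SAM/R-1 on control diet. Filled points have an adjusted p of 0.05 or less. Me1 at -0.20 is the filled point for diet, and between the strains the filled points run from Fech at -0.80 to Cul3 at 0.20.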

How the data were processed

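Per the file headers the deposited array files were made with Agilent Feature Extraction 9.5.3.1. They hold each spot's processed signal, an intensity after the authors' background subtraction and detrending, with median spot and local background signals, also an intensity, and other columns, the deposited flags that mark spots as non-uniform, saturated or well above background. The authors' deposited value table is on a log2 scale and correlated with these values at 0.99986 or more on every array after centring each probe. Its column medians lay between -0.04 and 0.04.

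Spots marked non-uniform, 187 in all, were left out. log2 of the processed signal minus the 75th percentile of the array was averaged over the spots of a probe. Of 41174 probes, 29009 were kept, those that some group had well above background on each of its 4 arrays. limma 3.58.1 in R 4.3.3 fitted 4 group means over 16 arrays and 6 contrasts (residual degrees of freedom 12, prior 2.32). A gene stands at its brightest kept probe. Names came from RefSeq accessions, for 24844 probes, and 16330 stayed unnamed. The array design is on mm9 (NCBI37), so no array coordinates are given. Replicates correlated between 0.987 and 0.997.

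The members and gene lists were chosen with earlier results of these data known. Named were all member probes, every pathway gene past the threshold, and marker score ranges. Alternatives were another background correction (normexp with an offset of 50, on median signals), quantile normalization, the filter, the percentile, the authors' table, the mean over a gene's probes, non-uniform spots kept, the arrays of one comparison alone, a replicate block and leaving out each array. The fit was tested on simulated data.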

Additional observations from a re-analysis of the deposited data

Results flagged for a closer look

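In each group of 4 arrays the highest and the lowest value of every member probe were compared with the rest by Dixon's test at its 95% critical value, which chance passes in about 1 of 20 groups. Of 68 groups, 3 passed. The second Nfe2l2 probe was low in SAM/R-1 CCH replicate 2, at -0.47 against -0.34 to -0.33 in the other arrays of that group. Gclc was low in SAM/R-1 control replicate 3, at 0.82 against 0.96 to 0.97. The brightest Gsr probe was high in SAM/P-8 CCH replicate 3, at -0.33 against -0.46 to -0.44. The library with striatal markers, SAM/P-8 CCH replicate 4, was not among them.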

How the results depend on the processing

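Diet calls among the 10 members stayed at 0 under every alternative that was run. The members called between the strains on CCH were 1, against 2 with the mean over a gene's probes and 1 to 2 when single arrays were left out. On control diet they were 2, against 1 with normexp, without a filter, with the replicate block and with the arrays of the comparison only, 3 with the mean over a gene's probes, and 1 to 2 when single arrays were left out. Gsr is the member that was lost there. For the mean over probes, the Srxn1 strain difference on CCH was 0.27 (limma adjusted p = 0.0151) and the Nfe2l2 difference on control diet 0.30 (limma adjusted p = 0.0463). With normexp the third Gsr probe lost its call on both diets (limma adjusted p = 0.304 and 0.212), as did both Srxn1 probes on CCH (limma adjusted p = 0.177 and 0.385). It moved the median of all probes by 0.108 for CCH in SAM/R-1. No called member difference changed sign. Pathway genes called for CCH averaged over strains were 1, against 0 with normexp, 2 without a filter, 3 with the mean over probes and 0 to 5 leaving out single arrays. With the replicate block 1 was called, a higher one, so Me1 was not. Between strains on CCH they were 6, against 3 with normexp and 5 to 7 leaving out arrays. On control diet they were 5, against 2 with normexp, 3 without a filter and 3 to 7 leaving out arrays. Over all probes, CCH in SAM/P-8 called 250, against 0 with normexp, 145 with quantile normalization, 152 without a filter, 132 with the replicate block, 28 with its own arrays only and 72 to 438 leaving out arrays. CCH in SAM/R-1 called 33, against 0 with normexp, 17 with probes above background on all 16 arrays, 20 with the block and 2 to 43 leaving out arrays. CCH averaged over strains called 1206, against 111 with normexp, 3346 without a filter and 297 to 2143 leaving out arrays. The interaction called 50, against 0 with normexp, 32 with quantile normalization, 17 with probes above background on all 16 arrays and 35 to 55 leaving out arrays. The strain differences called 3909 on CCH and 4004 on control diet, against 840 and 962 with normexp, 2821 to 4158 and 2973 to 4521 leaving out arrays. The cause was not tested. Replicate numbers equalled slide positions, and same-numbered arrays of 2 groups correlated in their deviations from -0.192 to 0.303, not all above 0.1. Some arrays correlated best with their own number and others did not. The main fit did not pair samples by number, and these correlations do not settle whether the numbers pair them. The third Slc7a11 probe is near background and had the widest 95% interval of the members, a half-width of 0.38, against 0.11 for Txnrd1.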

Other observations

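Maff, a small MAF protein that can pair with NRF2, was singled out after its values were seen. It averaged -1.03 ± 0.60 on CCH and -1.78 ± 0.64 on control diet in SAM/P-8, and -1.41 ± 0.37 on CCH and -2.35 ± 0.38 on control diet in SAM/R-1 (SD, n = 4 each). The CCH effect averaged over the strains was 0.84 ± 0.24 and did not pass (limma adjusted p = 0.0590). The other small MAF and BACH genes with a probe, Mafg, Mafk and Bach1, gave 0.11 ± 0.04, 0.05 ± 0.04 and 0.20 ± 0.09 in the same comparison.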
